A study of Mus musculus with 4 samples.

Results

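The CD150-CD48- multipotent progenitors described here were 756 cells, 254 from a KO library and 502 from a WT library, out of 8094 cells that passed the filters. They came from the fetal liver of E17.5 mouse embryos, sorted as LSK cells, meaning cells without lineage markers (Lineage-) that carry Sca1 and c-Kit. The KO embryos were Vav-Cre:Bclaf1 f/f and the WT embryos were Bclaf1 f/f without Cre, so every embryo carried 2 floxed Bclaf1 alleles and the WT group does not control for Cre itself. Vav-Cre is driven by a promoter active in blood cells and serves to remove Bclaf1 in the blood lineage. Whether other cells of the embryo recombined as well was not measured here. Cells of 10 embryos were pooled per genotype, c-Kit cells were enriched on beads, 20000 LSK cells were sorted and 10000 loaded. Each genotype was thus 1 library, so there was no replicate, no test could be made, and genotype and library cannot be told apart. RNA and 6 surface antibodies were read in the same cells (CITE-seq), each as unique molecular identifiers (UMIs), which count captured molecules. The cells were chosen by measured values, on antibody tags and transcripts: a cell had at least 8000 gene UMIs and at most 10% mitochondrial UMIs, a CD150 value of at most -1.14, a CD48 value under 2.34, and under 2 UMIs of each of Elane, Klf1, Pf4, Il7r and Cma1. The antibody value is a centred log ratio (CLR), the natural log of 1 plus the tag count minus the mean of that log over the 6 antibodies of the cell.

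Blood stem cells and their first progeny lie in the LSK population and are divided by the SLAM-family receptors CD150 (Slamf1) and CD48. CD150+CD48- cells are enriched for stem cells, CD150-CD48+ cells for progenitors on the way to lymphoid and myeloid fates, and CD150-CD48- cells are multipotent progenitors that are held to lie between them, with short-lived ability to repopulate. In the fetal liver these cells divide and expand before blood formation moves to the bone marrow. BCLAF1 is a nuclear serine- and arginine-rich protein linked to RNA processing and transcription, and the study asks what its loss does to blood stem cells under the heading of stress responses.

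The gate rests on the reads of antibody tags of 15 bases, shown here because the CD150 and CD48 tags define the cells and the CD201 tag divides them further below. Sca1 was read through the tag of a PE-streptavidin conjugate. All bases are in capitals because the whole tag is what is read, 5′ to 3′.
CD150: CAACGCCTAGAAACC
CD48: AGAACCGCCGTAGTT
CD34: AAACTCAGGTCCTTC
CD201: TATGATCTGCCCTTG
CD117: TGCATGTCATCGGTG
Sca1: GTCCGACTAATAGCT

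The KO library held more gene UMIs per cell. Within the gate the median was 20559 gene UMIs and 4559.5 genes per cell in KO, against 15756.5 gene UMIs and 3780 genes in WT. At equal depth, with each cell thinned to 8000 gene UMIs, the medians were 2638.5 genes in KO and 2536.5 in WT. Mitochondrial UMIs had medians of 4.41% in KO and 4.26% in WT. The summed gene UMIs of the gate were 5572421 in KO and 8510743 in WT, which is the depth behind each level below. Levels are UMIs per 1000000 gene UMIs of the gate (CPM), ratios are on the log2 scale, and brackets of ratios and shares are 95% intervals that cover counting error only. No barcode occurred in the gate of both libraries, and 5 were shared among all cells.

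**Figure D1:**
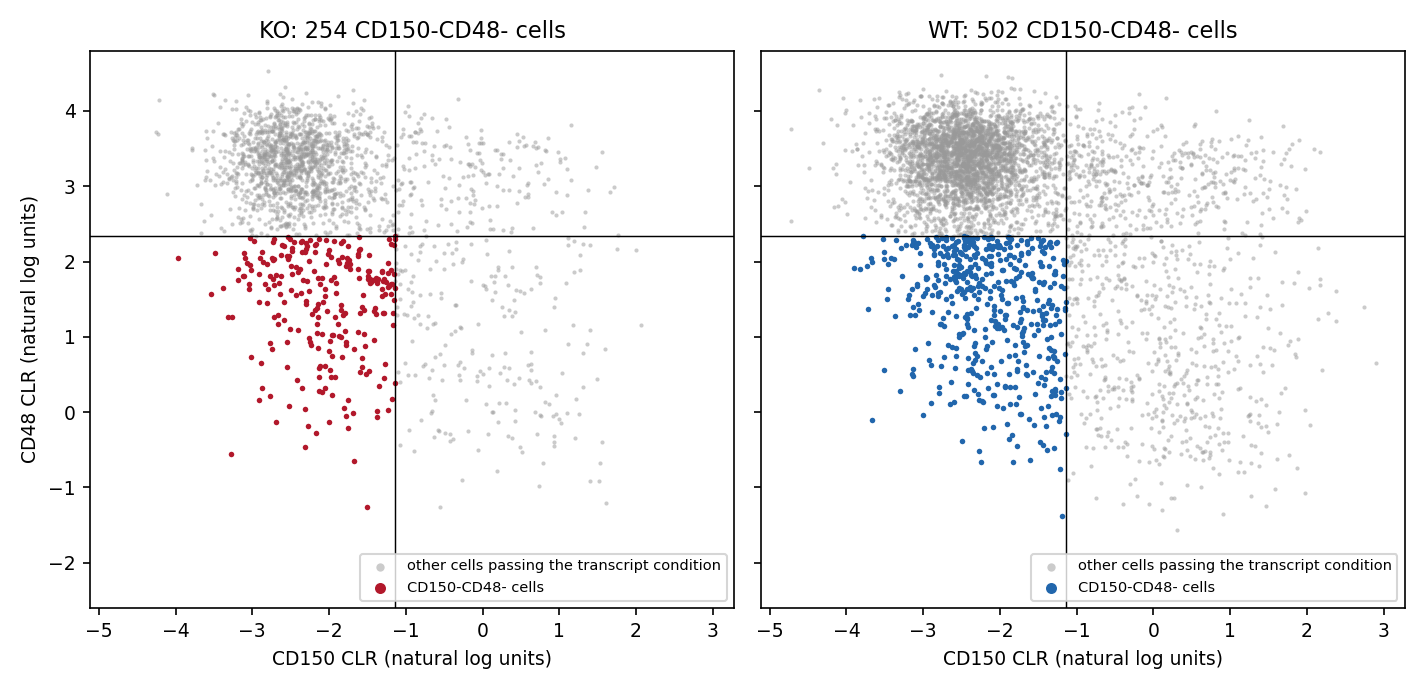
CD150 (x axis) and CD48 (y axis) antibody values per cell as CLR in natural log units, left KO and right WT; coloured points are the CD150-CD48- cells, grey points are the other cells that pass the transcript condition, and lines mark the limits -1.14 and 2.34. The gate holds 254 KO and 502 WT cells, and in both libraries its points run up to both limits without a gap.

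A minority of the gated cells did not carry the transcripts of the others, and more of them lay in the KO library. Cells with at least 5 UMIs per 8000 of 12 erythroid transcripts (Ermap, Car1, Aqp1, Gata1, Epor, Blvrb, Hemgn, Rhd, Ank1, Add2, Tspo2, Sphk1) numbered 22 of 254 in KO (8.66%, 5.51 to 12.8) and 2 of 502 in WT (0.398%, 0.0483 to 1.43). Cells with as many UMIs of 4 MHC class II transcripts (Cd74, H2-Aa, H2-Ab1, H2-Eb1), which antigen-presenting cells make, numbered 6 in KO (2.36%, 0.872 to 5.07) and 14 in WT (2.79%, 1.53 to 4.63). No cell carried both sets. Both sets and the limit were chosen after the values were seen. The 22 KO cells with erythroid transcripts had a median of 11648.5 gene UMIs and 176 Sca1 tags, against 20738 gene UMIs and 590 Sca1 tags in the 226 KO cells with neither set. Hlf stood at 62.1 CPM in those 22 cells, against 629 CPM in the 226 others, and 9 of the 22 held no UMI of Hlf, Mecom, Mycn or Ly6a. The MHC class II cells held no Hlf UMI in either library. The erythroid cells were unevenly spread in the CD150+CD48- gate as well, with 16 of 217 cells in KO (7.37%) and 2 of 564 in WT (0.355%). For these reasons results are given over all cells and again without both minorities, which leaves 226 KO and 486 WT cells.

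**Figure D2:**
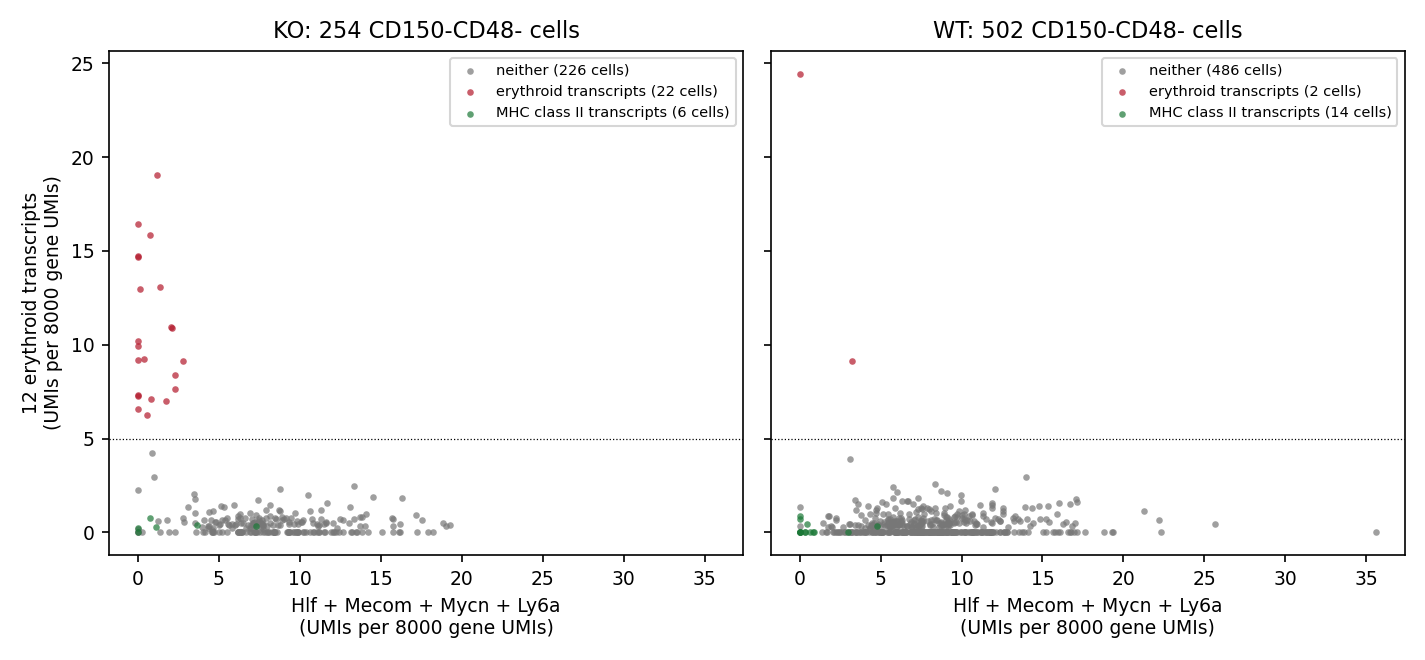
UMIs of 12 erythroid transcripts (y axis) against summed Hlf, Mecom, Mycn and Ly6a UMIs (x axis), both per 8000 gene UMIs, 1 point per cell of the gate, left KO and right WT; the dotted line marks 5. The 22 KO and 2 WT cells above the line lie at the low end of the x axis.

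Bclaf1 itself was lower in the KO library in this gate. It had 92.8 CPM in KO and 212 CPM in WT, a log2 ratio of -1.19 (-1.34 to -1.05), and -1.25 without the minorities. The same ratio was -1.30 in the CD150+CD48- gate and -1.51 in the CD150-CD48+ gate. The reads are tags from the 3′ end of the transcript and the labels do not say which exons are floxed, so the remaining Bclaf1 UMIs do not tell how many cells kept an intact gene. Thrap3, which encodes the paralog of BCLAF1 and acts in RNA processing too, had 245 CPM in KO and 163 CPM in WT (log2 0.59, 0.48 to 0.70). In the neighbouring gates the Thrap3 ratio was 0.54 in CD150+CD48- cells and 0.46 in CD150-CD48+ cells.

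The gate took nearly the same share of both libraries. It held 9.26% of KO cells (8.20 to 10.4) and 9.38% of WT cells (8.61 to 10.2), a difference of -0.116 percentage points (-1.43 to 1.25). Without the minorities the shares were 8.24% in KO and 9.08% in WT, a difference of -0.839 points (-2.10 to 0.478). As shares of all cells the neighbouring gates were smaller in KO. CD150+CD48- cells were 7.91% in KO and 10.5% in WT, a difference of -2.62 points (-3.90 to -1.29). CD150-CD48+ cells were 49.8% in KO and 57.9% in WT, a difference of -8.07 points. More KO cells carried 2 or more UMIs of a lineage transcript of the rule, 26.1% in KO and 13.6% in WT. This limit was not scaled to depth, and over all cells the median was 33481 gene UMIs in KO and 22701.5 in WT, so the part of depth in these shares and in those that follow was not tested. Among the cells that passed this transcript condition the gate was 12.5% in KO and 10.9% in WT, so the sign of the difference turned with the denominator (1.68 points, 0.0232 to 3.42). With that denominator CD150-CD48+ cells were 67.4% in KO and 67.0% in WT (0.421 points, -2.05 to 2.85). CD150+CD48- cells were then 10.7% in KO and 12.2% in WT (-1.49 points, -3.09 to 0.202). Of cells below the CD48 limit that passed, the CD150-CD48- gate was 53.9% in KO and 47.1% in WT (6.84 points, 1.41 to 12.2). The transcript condition removed 123 KO cells and 113 WT cells that were low for both antibodies, of which 97 in KO and 68 in WT held Klf1, an erythroid transcription factor.

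The cells of the gate carried more CD201, the endothelial protein C receptor of stem cells encoded by Procr, and more Sca1 than all cells together. The CD150 and CD48 values of the gate are taken against the mean over all antibodies of the cell. At given CD150 and CD48 tags, more CD201, Sca1 or CD34 tags thus lower both values and favour entry into the gate. The tag counts of this paragraph are therefore not independent of the gate, and its part in them was not tested. Median CD201 tags were 100.5 in KO and 43 in WT within the gate, against 91 in KO and 44.5 in WT in CD150+CD48- cells, 30 in KO and 8 in WT in CD150-CD48+ cells and 37 in KO and 10 in WT over all cells. CD201 tags were thus about as many as in CD150+CD48- cells. Median Sca1 tags were 523 in KO and 494 in WT within the gate, against 329 in KO and 332.5 in WT in CD150+CD48- cells and 174 in KO and 155 in WT over all cells. CD34, a surface sialomucin of blood progenitors, had medians of 81 tags in KO and 39 in WT, against 33 in KO and 16 in WT in CD150+CD48- cells and 149 in KO and 75 in WT in CD150-CD48+ cells. The KO library held more tags per cell, so tag counts compare cells within a library and not between the libraries. Just inside the CD150 limit (within 0.25 CLR) 40 KO cells had 519 CPM of Hlf and 64 WT cells had 532 CPM, and just outside it 32 KO cells had 375 CPM and 60 WT cells had 471 CPM. Just inside the CD48 limit 42 KO cells had 548 CPM of Hlf and 105 WT cells had 476 CPM, and just outside it 80 KO cells had 345 CPM and 146 WT cells had 353 CPM.

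The 4 marker genes of the gate were present, at levels near or above those of the CD150+CD48- gate for Hlf, Mycn and Ly6a. Hlf, a transcription factor of stem and early progenitor cells, had 574 CPM in KO and 552 CPM in WT, against 483 CPM in KO and 445 CPM in WT in CD150+CD48- cells and 192 CPM in KO and 174 CPM in WT in CD150-CD48+ cells. Mecom, a transcription factor needed for stem cell upkeep, had 207 CPM in KO and 219 CPM in WT, below the 267 CPM in KO and 266 CPM in WT of CD150+CD48- cells and above the 32.2 CPM in KO and 32.9 CPM in WT of CD150-CD48+ cells. Mycn, a growth-promoting MYC family member, had 119 CPM in KO and 150 CPM in WT. Ly6a, which encodes Sca1, had 42.7 CPM in KO and 45.9 CPM in WT and was higher here than in CD150+CD48- cells in both libraries (log2 0.92 in KO and 0.84 in WT). These genes chose the name of the gate and are a description of it. Markers of other cell types were near 0 as a list for stellate or mesenchymal cells (3.23 CPM summed over 9 genes in KO, 3.76 CPM in WT). B cell markers summed to 40.0 CPM over 9 genes in KO and 47.1 CPM in WT. In each library 1 of these 9 reached 20 CPM, while Ms4a1, Pax5 and Vpreb3 were among those at 0 in both. Cd79b, a B cell gene, had 40.0 CPM in upper and 42.3 CPM in lower KO cells of the CD201 division below, without the minorities. In WT it had 50.8 CPM in upper and 42.2 CPM in lower cells. Mast cell, basophil and eosinophil markers summed to 380 CPM over 25 genes in KO and 354 CPM in WT. Macrophage, monocyte and dendritic cell markers, which include the 4 MHC class II transcripts, summed to 659 CPM over 15 genes in KO and 465 CPM in WT, above the 390 CPM in KO and 222 CPM in WT of CD150+CD48- cells and the 186 CPM in KO and 208 CPM in WT of free RNA. Endothelial markers, which include Egfl7, summed to 291 CPM over 11 genes in KO and 359 CPM in WT, beside 219 CPM in KO and 354 CPM in WT in free RNA. The part of these cell types in the results was not tested beyond leaving out the MHC class II cells.

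**Figure D3:**
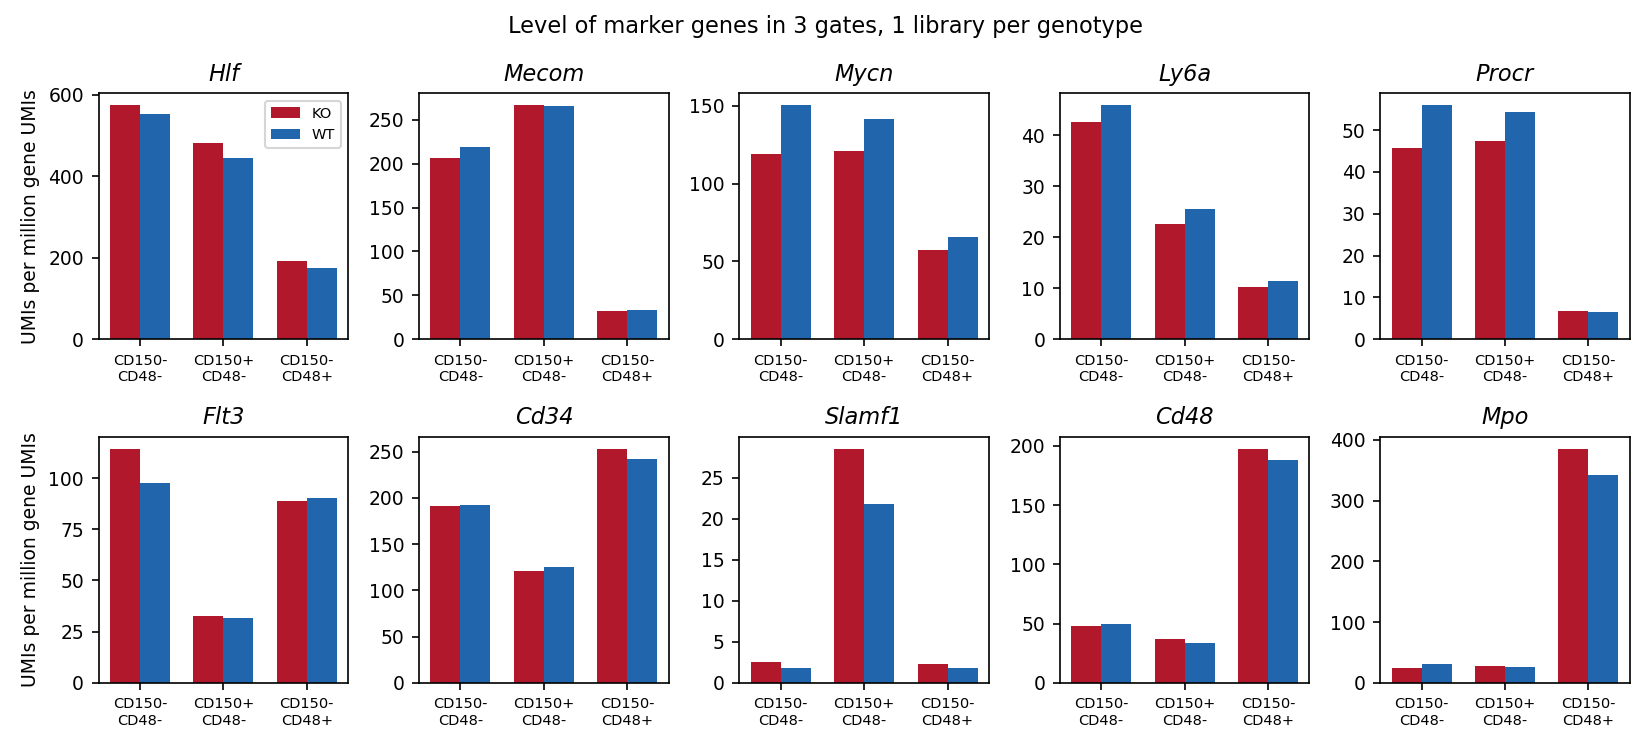
Levels of 10 genes in UMIs per 1000000 gene UMIs (y axes start at 0) in 3 gates (x axes), with KO bars left of WT bars and 1 library per bar. Hlf and Ly6a are highest in the CD150-CD48- gate, Mecom and Slamf1 in the CD150+CD48- gate, and Cd34, Cd48 and Mpo in the CD150-CD48+ gate.

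Against CD150+CD48- cells the gate stood out by Flt3 and other lymphoid-associated transcripts, and held less of the megakaryocyte priming transcripts. Flt3, a cytokine receptor of lymphoid-competent progenitors, had 114 CPM in CD150-CD48- cells and 32.4 CPM in CD150+CD48- cells of the KO library, a log2 ratio of 1.82 (1.57 to 2.08). In WT it had 97.5 CPM and 31.4 CPM in the same order of gates (1.63, 1.44 to 1.83). CD150-CD48+ cells had 89.0 CPM of Flt3 in KO and 90.3 CPM in WT, much nearer to the gate. Of 5738 genes with at least 20 CPM, 59 were at least 1.5-fold higher in the gate in both libraries (1.03%) and 52 at least 1.5-fold lower (0.906%). Without the minorities these were 48 (0.837%) and 51 (0.89%) of 5732 genes, and the genes named next are ranked over those cells. After Flt3 the highest were Wfdc17, Cd52, Pde4d, Satb1, Cd37, Tespa1, Cd53, Mzb1 and Gpr65. Satb1, a chromatin organiser of lymphoid progenitors, had log2 ratios of 1.32 in KO and 1.16 in WT. Tespa1, a T cell receptor signalling component, had ratios of 2.20 in KO and 1.25 in WT, and Il12a, a cytokine subunit, 1.54 in KO and 1.09 in WT. H2-Aa and H2-Eb1 ranked among the highest over all cells and did not when the MHC class II cells were left out.

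The genes lowest in the gate against CD150+CD48- cells included some that are enriched in stem cells, while Procr was even (-0.02 in KO, 0.08 in WT). Apoe, an apolipoprotein, had 207 CPM in CD150-CD48- cells and 645 CPM in CD150+CD48- cells of KO without the minorities, and 300 CPM and 656 CPM in WT (log2 -1.64 in KO, -1.13 in WT). Slc18a2, a vesicular monoamine transporter, had ratios of -1.67 in KO and -1.58 in WT, and Ctnnal1, a catenin-like protein, -1.80 in KO and -1.46 in WT. Pdzk1ip1, a stem-cell-enriched membrane protein gene, had ratios of -1.55 in KO and -0.98 in WT. Slfn2, of the Schlafen family tied to immune cell quiescence, had -1.57 in KO and -1.23 in WT. The megakaryocyte priming list had a median log2 ratio of -0.58 in KO and -0.50 in WT and the lymphoid priming list 0.47 in KO and 0.35 in WT, beside -0.04 in KO and -0.02 in WT over all genes measured. The stem cell identity list stood at -0.10 in KO and -0.18 in WT. Meg3 and H19, imprinted non-coding RNAs linked to fetal stem cells, were lower in the gate (Meg3 -1.15 in KO and -0.84 in WT, H19 -1.06 in KO and -0.59 in WT), while Ndnf, a secreted fibronectin-domain protein, was higher (1.29 in KO and 0.87 in WT).

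Against CD150-CD48+ cells stem cell identity genes were higher in the gate and granulocyte and monocyte transcripts lower. Without the minorities 36 of 38 stem cell identity genes were above 0 in both libraries, 28 of them at least 1.5-fold in KO and 32 in WT. Of 14 granulocyte-monocyte priming genes 9 were below 0 in KO and 10 in WT. The median over all genes measured was above 0 in both libraries, at 0.08 in KO and 0.09 in WT. Over all cells the granulocyte-monocyte list summed to 2262 CPM in KO and 2323 CPM in WT in the gate. In CD150-CD48+ cells it summed to 3634 CPM in KO and 3351 CPM in WT. Ndnf had 48.5 CPM in CD150-CD48- cells and 1.64 CPM in CD150-CD48+ cells of KO without the minorities, and 41.7 CPM and 1.64 CPM in WT (log2 4.88, 4.51 to 5.27, in KO; 4.67, 4.37 to 4.97, in WT). Over all cells 399 of 5615 genes were at least 1.5-fold higher in both libraries (7.11%) and 129 lower (2.30%), and without the minorities 436 (7.75%) and 157 (2.79%) of 5627. These shares count genes past 1.5-fold in both libraries at once, while the list counts above are per library. Scaling by the median of ratios in place of library totals changed 399 higher and 129 lower to 283 higher and 230 lower. The highest after Ndnf were Igf1, Pdzk1ip1, Meg3, Mecom, H19, Procr, Col4a2, Chil5 and Col4a1. Igf1, insulin-like growth factor 1, had ratios of 4.21 in KO and 3.67 in WT, and Procr 2.90 in KO and 3.12 in WT. Mpo, the myeloperoxidase of granulocyte progenitors, was the lowest, with 22.6 CPM in CD150-CD48- cells and 389 CPM in CD150-CD48+ cells of KO and 32.0 CPM and 345 CPM in WT (-4.11 in KO, -3.43 in WT). Cst7, Ctsg, Adgrg3, Ccl9, BC035044, Myc, Bin1 and Nkg7 were among those that followed. Myc, which drives growth, had ratios of -2.12 in KO and -2.23 in WT, whereas its relative Mycn had 1.16 in KO and 1.23 in WT. List medians were 1.64 in KO and 1.87 in WT for imprinted growth genes, 1.02 in KO and 1.11 in WT for stem cell identity, 0.66 in KO and 0.55 in WT for quiescence, and -0.81 in KO and -0.64 in WT for granulocyte-monocyte priming, beside 0.08 in KO and 0.09 in WT over all genes measured.

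Hlf and Flt3 were detected together in single cells of the gate more often than in either neighbour. At 8000 UMIs per cell 52.8% of KO cells (46.4 to 59.0) and 47.4% of WT cells (43.0 to 51.9) held UMIs of both. In CD150+CD48- cells this was 18.4% in KO and 16.8% in WT, and in CD150-CD48+ cells 28.3% in KO and 29.3% in WT. Single detection of Hlf at this depth was 85.8% in KO and 93.8% in WT (88.6% in KO and 95.2% in WT without thinning), against 5.95% in KO and 9.26% in WT of cells with at least 5 Klf1 UMIs. Flt3 was detected in 57.5% of KO cells and 49.8% of WT cells (77.6% in KO and 73.7% in WT without thinning), and in 1.12% in KO and 2.31% in WT of the Klf1 cells. CD150-CD48+ cells held Flt3 in 46.2% in KO and 49.2% in WT at the same depth, so Flt3 by itself was not particular to the gate. Cell division transcripts were lower than in CD150-CD48+ cells. Mki67, a proliferation marker, was detected in 24.8% of KO cells and 22.8% of WT cells without the minorities, against 45.3% in KO and 40.1% in WT of CD150-CD48+ cells, and the S phase list had a median ratio of -0.45 in KO and -0.35 in WT.

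**Figure D4:**
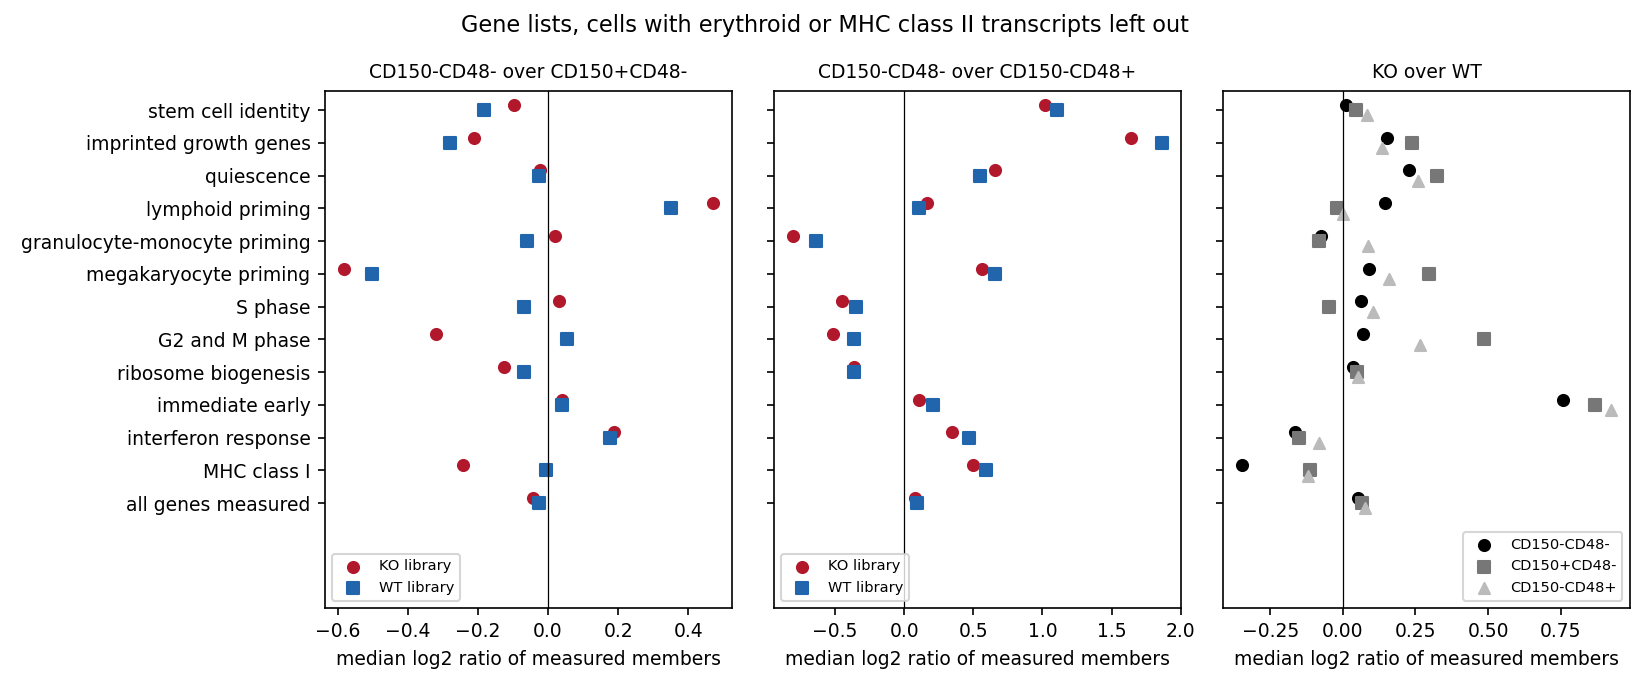
Median log2 ratio of the measured members (x axis) of 12 gene lists and of all genes measured (y axis), without the erythroid and MHC class II cells. Left and middle: the gate over each neighbour in KO (circles) and WT (squares). Right: KO over WT in 3 gates, with the immediate early list farthest from 0 in all 3.

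The immediate early genes were the group that stood apart most between KO and WT in this gate. Immediate early genes are transcription factors and feedback regulators that are switched on within minutes of growth or stress signals, many of them through serum response and cyclic AMP response elements in their promoters. All 20 measured members were higher in KO without the minorities, 14 of them at least 1.5-fold, with a median log2 ratio of 0.76 beside 0.05 over all genes measured. Over all cells 18 members were measured, all 18 were above 0, 13 were at least 1.5-fold higher and the median was 0.70 beside 0.06. A gene counted as measured at 20 CPM in either library, so a member reaching it only in KO was higher by the filter. Over all cells 18 members reached 20 CPM in KO and 14 in WT. Without the minorities Nr4a1 and Nr4a2 were among the members that entered by their KO level alone. Of all 6009 genes measured 151 were at least 1.5-fold higher in KO (2.51%) and 14 at least 1.5-fold lower (0.233%), and without the minorities 105 (1.75%) and 9 (0.15%) of 5983. By the smaller size of 25%, 806 genes (13.4%) were higher over all cells and 619 (10.3%) without the minorities. Under median-of-ratios scaling 151 higher and 14 lower became 101 higher and 24 lower. The list was known to differ over all LSK cells of these libraries, so its count here is not independent evidence.

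The promoter windows of 3 members are shown because these members were higher in KO and are well-known immediate early genes that hold TGACG, the short core of the cyclic AMP response element. They run from 250 bases before to 50 bases after the annotated start (RefSeq, GRCm38.p6), 5′ to 3′ on the gene's strand, with TGACG or its reverse complement CGTCA in capitals. The full element is the palindrome TGACGTCA, which among these windows only that of Dusp1 holds, and there all 8 of its bases are in capitals.
Fos, chr12:85473640-85473939, plus strand: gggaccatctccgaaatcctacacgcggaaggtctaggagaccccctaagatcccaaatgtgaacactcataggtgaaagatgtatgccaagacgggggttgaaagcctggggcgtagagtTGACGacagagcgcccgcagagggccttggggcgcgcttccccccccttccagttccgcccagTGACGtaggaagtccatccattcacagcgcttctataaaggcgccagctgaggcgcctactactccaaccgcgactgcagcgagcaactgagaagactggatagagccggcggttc
Nr4a1, chr15:101266596-101266895, plus strand: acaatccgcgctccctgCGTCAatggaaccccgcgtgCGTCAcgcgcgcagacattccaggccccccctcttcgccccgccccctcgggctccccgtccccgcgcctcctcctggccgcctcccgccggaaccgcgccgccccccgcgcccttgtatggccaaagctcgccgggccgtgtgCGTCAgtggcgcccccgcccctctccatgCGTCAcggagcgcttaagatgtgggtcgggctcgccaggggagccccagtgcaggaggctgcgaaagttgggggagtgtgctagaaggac
Dusp1, chr17:26508423-26508722, minus strand: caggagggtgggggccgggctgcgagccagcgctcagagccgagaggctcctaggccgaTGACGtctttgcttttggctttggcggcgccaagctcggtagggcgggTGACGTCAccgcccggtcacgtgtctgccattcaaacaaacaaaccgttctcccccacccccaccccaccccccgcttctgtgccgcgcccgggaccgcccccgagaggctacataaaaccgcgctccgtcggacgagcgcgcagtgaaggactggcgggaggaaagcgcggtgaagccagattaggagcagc
Counted on both strands, where the palindrome counts once per strand, the short motif occurs 2 times for Fos, 4 times for Nr4a1 and 3 times for Dusp1. Of 29 listed members 23 had a window, and 15 of them (65.2%) held TGACG on either strand, against 23.05% of all 27025 genes with a window. The palindrome was in 2 of the 23 (8.70%), against 2.03% of all genes, and the CArG box of the serum response factor in 4 (17.4%), against 1.81%. A match is a description of the letters in these windows and not a sign that a factor binds there.

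Fos, which pairs with Jun proteins to form AP-1, had 190 CPM in KO and 43.1 CPM in WT, a log2 ratio of 2.14 (1.96 to 2.31), and 2.32 without the minorities. The ratio was 2.18 in CD150+CD48- cells and 2.02 in CD150-CD48+ cells. At 8000 UMIs per cell Fos was detected in 54.7% of KO cells (48.4 to 61.0) and 23.7% of WT cells (20.05 to 27.67), and without thinning in 72.4% in KO and 35.7% in WT. Cells with at least 5 Klf1 UMIs held Fos in 14.1% in KO and 3.70% in WT at the same depth, below the gate in both libraries. Droplets with 100 to 300 gene UMIs, which hold mostly free RNA, had 105 CPM of Fos in KO and 39.2 CPM in WT, so free RNA differed the same way, and its part in the cells' ratio was not tested.

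Klf2, a quiescence-linked transcription factor of blood and endothelial cells, had 71.1 CPM in KO and 15.04 CPM in WT (2.24, 1.95 to 2.54). It was detected in 37.0% of KO cells and 12.7% of WT cells at equal depth, against 0.372% in KO and 0.463% in WT of Klf1 cells. Its level was higher in the gate than in CD150-CD48+ cells in both libraries, where it had 22.01 CPM in KO and 8.01 CPM in WT and a ratio of 1.46. Klf6, a related factor, had 169 CPM in KO and 63.6 CPM in WT (1.41, 1.26 to 1.57), beside ratios of 0.95 in CD150+CD48- and 1.18 in CD150-CD48+ cells. Whether the ratios differ between gates was not tested.

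Feedback regulators of the same list were higher in KO too. Dusp1, a phosphatase that shuts off MAP kinases, had 62.5 CPM in KO and 18.9 CPM in WT (1.72, 1.45 to 2.00). Zfp36, a protein that destabilises inflammatory mRNAs, had 99.2 CPM in KO and 40.7 CPM in WT (1.29, 1.09 to 1.49). Nr4a1 and Nr4a2, orphan nuclear receptors, reached 20 CPM in KO without the minorities, Nr4a1 with 20.2 CPM in KO and 3.40 CPM in WT (2.57, 1.95 to 3.23) and Nr4a2 with 20.8 CPM in KO and 2.92 CPM in WT (2.83, 2.18 to 3.54). At the low end of the list Jund, an AP-1 subunit, had 274 CPM in KO and 227 CPM in WT (0.27, 0.17 to 0.37), and Ier2 162 CPM in KO and 114 CPM in WT (0.50, 0.37 to 0.64). Jun, also of AP-1 and named here after its values were seen, had 651 CPM in KO and 361 CPM in WT (0.85, 0.78 to 0.92).

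**Figure D5:**
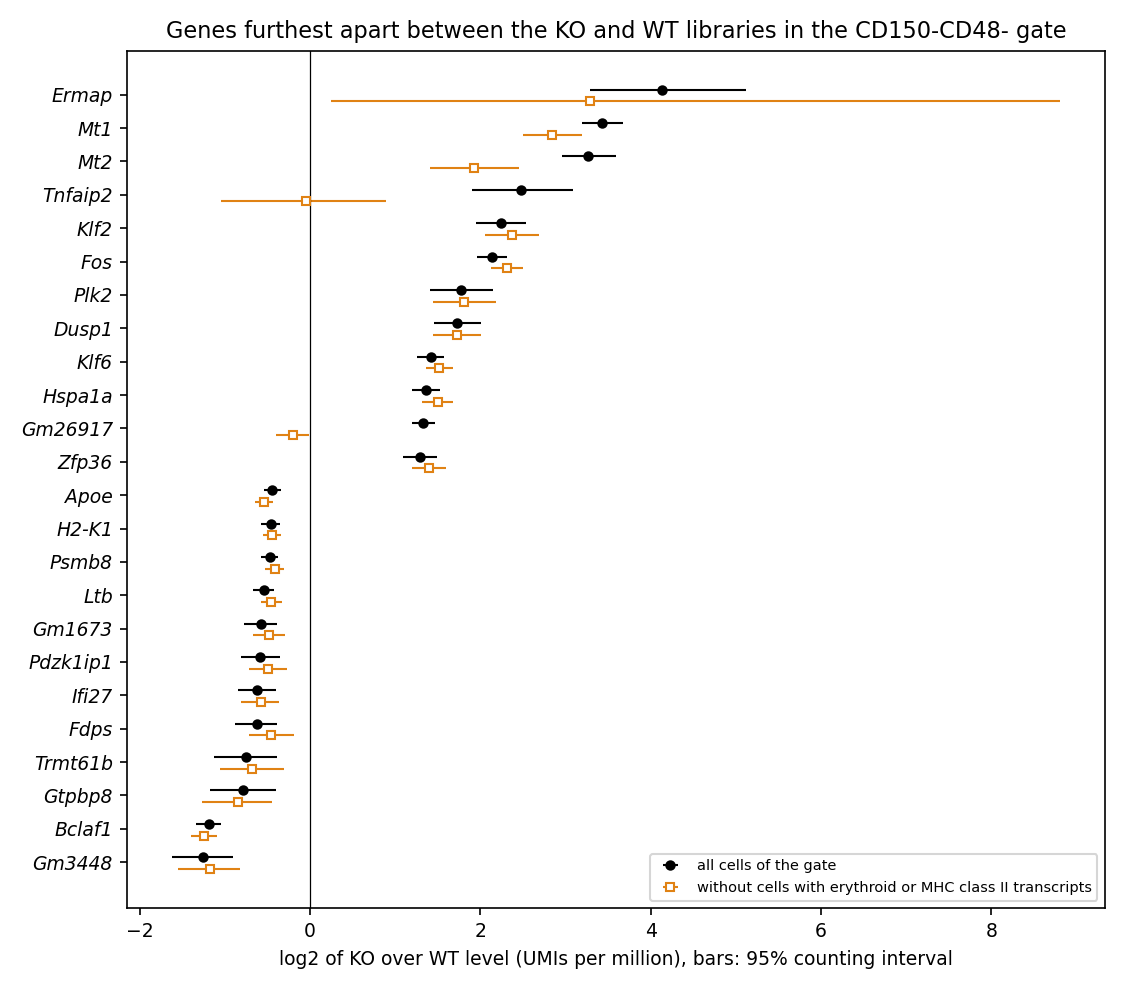
log2 of the KO over WT level (x axis) for the 12 highest and 12 lowest genes of the gate (y axis), with 95% counting intervals; black circles are all 254 KO and 502 WT cells, open orange squares are the cells left without the erythroid and MHC class II cells. Klf2, Fos, Plk2, Dusp1, Klf6, Hspa1a and Zfp36 stay well above 0, with Fos moving from 2.14 to 2.32. Tnfaip2 and Gm26917 are near 0 or below without the minorities.

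Other stress-linked genes were higher in KO too, and 3 of their lists stood above the median of all genes. Over all cells the median log2 ratio was 0.36 for 12 measured genes of the ATF4 and integrated stress response, 0.31 for NF-kB and TNF response and 0.24 for p53 targets, beside 0.06 over all genes. Without the minorities these were 0.21, 0.14 and 0.26, beside 0.05. In these lists too a member that reached 20 CPM only in KO was higher by the filter. Over all cells 8 NF-kB and TNF response genes reached 20 CPM in KO and 6 in WT. Of p53 targets 12 reached it in KO and 9 in WT, and of the ATF4 list 12 in KO and 11 in WT. Of the ATF4 list 2 of 12 were at least 1.5-fold higher over all cells and 1 of 11 without the minorities. Plk2, a stress-induced kinase, had 36.1 CPM in KO and 10.6 CPM in WT (1.77, 1.40 to 2.15). Hspa1a, an inducible heat shock protein with the near-identical copy Hspa1b, had 144 CPM in KO and 55.9 CPM in WT (1.36, 1.19 to 1.53), and Hspa1b 200 CPM in KO and 92.9 CPM in WT (1.10, 0.97 to 1.24). Reads may be split unevenly between such copies. Of 16 heat shock proteins measured 4 were at least 1.5-fold higher over all cells and 3 without the minorities, where 9 were above 0 and 7 below and the median was 0.03. Nfkbiz, an NF-kB regulator, had 31.9 CPM in KO and 13.9 CPM in WT (1.20), and 3 of the 8 measured NF-kB and TNF response genes were at least 1.5-fold higher over all cells. Dnajb9, a chaperone of the unfolded protein response, had 39.7 CPM in KO and 20.3 CPM in WT (0.96), while that list had a median of 0.01. Of p53 targets 10 of 11 were above 0 without the minorities, 1 of them at least 1.5-fold.

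Mt1 and Mt2, metallothioneins that bind zinc, were higher in KO and depended on the erythroid cells for part of their size. Mt1 had 209 CPM in KO and 19.4 CPM in WT over all cells (3.43, 3.20 to 3.68), and 76.6 CPM in KO and 10.7 CPM in WT without the minorities (2.84, 2.50 to 3.19). Mt2 had 113 CPM in KO and 11.7 CPM in WT over all cells (3.27), and 21.2 CPM in KO and 5.59 CPM in WT without them (1.92). Free RNA held 1242 CPM of Mt1 in KO and 556 CPM in WT, well above the cells. Ermap, an erythroid membrane protein, had 24.8 CPM in KO and 1.41 CPM in WT over all cells (4.13), and 1.19 CPM in KO and 0.122 CPM in WT without the minorities. Tnfaip2 had 21.0 CPM in KO and 3.76 CPM in WT over all cells (2.48), and 3.17 CPM in KO and 3.28 CPM in WT without them (-0.05). Gm26917, a non-coding RNA, had 215 CPM in KO and 85.8 CPM in WT over all cells (1.33), and 67.7 CPM in KO and 77.9 CPM in WT without them (-0.20). The erythroid priming list had a median of 0.69 over 11 measured genes, and 0.01 over 9 without the minorities. Over all cells 11 members reached 20 CPM in KO and 6 in WT, so some were measured by their KO level alone. The removed cells were picked by erythroid transcripts, Ermap among them. The falls of Ermap and of this list thus follow from that choice.

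Interferon and MHC class I transcripts were slightly lower in KO. Summed over the list, interferon response genes had 4452 CPM in KO and 5232 CPM in WT, and MHC class I genes 1105 CPM in KO and 1279 CPM in WT. Free RNA differed the same way, with 2555 CPM in KO and 3461 CPM in WT for interferon response. For MHC class I free RNA held 711 CPM in KO and 940 CPM in WT, and its part in the ratios was not tested. Of 30 measured interferon response genes 23 were below 0, 6 at least 20% lower (3.03% of all genes were) and 1 at least 1.5-fold lower, and the list's median was -0.21. Without the minorities 23 of 28 were below 0, 6 at least 20% lower, and the median was -0.17 beside 0.05 over all genes, of which 161 (2.69%) were at least 20% lower. Ifi27, an interferon-induced mitochondrial protein, had 44.0 CPM in KO and 67.6 CPM in WT (-0.62, -0.84 to -0.40). Psmb8, an immunoproteasome subunit, had 200 CPM in KO and 278 CPM in WT (-0.48, -0.58 to -0.37). Isg15, a ubiquitin-like interferon product, had 44.5 CPM in KO and 52.6 CPM in WT over all cells (-0.24, -0.47 to -0.02), with 1 KO cell holding 12.5% of its KO UMIs, and -0.54 without the minorities. For MHC class I all 5 measured genes were below 0, 3 of them by 20% or more, and the median was -0.36. H2-K1 had 190 CPM in KO and 262 CPM in WT (-0.47, -0.57 to -0.36) and H2-D1 173 CPM in KO and 222 CPM in WT (-0.36, -0.47 to -0.25). Without the minorities the MHC class I median was -0.35 in this gate, -0.11 in CD150+CD48- cells and -0.12 in CD150-CD48+ cells, a difference between gates that was not tested.

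Fewer genes were at least 1.5-fold lower in KO (14) than at least 1.5-fold higher (151). Ltb, a lymphotoxin subunit of the TNF family, had 141 CPM in KO and 205 CPM in WT (-0.54, -0.67 to -0.42). Apoe had 214 CPM in KO and 291 CPM in WT (-0.44, -0.54 to -0.34), while its ratio was -0.09 in CD150+CD48- cells and 0.12 in CD150-CD48+ cells. Pdzk1ip1 had 41.1 CPM in KO and 61.7 CPM in WT (-0.59, -0.82 to -0.36), and 125 CPM in both libraries in CD150+CD48- cells. Fdps, an enzyme of cholesterol synthesis, had 35.2 CPM in KO and 54.4 CPM in WT (-0.63), or -0.45 without the minorities. Gm3448 had 15.3 CPM in KO and 36.5 CPM in WT (-1.26, -1.62 to -0.91), the lowest ratio of the 12, and Gtpbp8, Trmt61b and Gm1673 completed the lowest genes with ratios of -0.78, -0.76 and -0.58.

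Stem cell identity genes of the gate stood close to the level of all genes between KO and WT, and this held only with the transcript condition of the gate. Of 38 measured stem cell identity genes the median ratio was -0.03, and without the minorities 23 of 39 were above 0 with a median of 0.01, none past 1.5-fold. Hlf had a ratio of 0.06 (-0.01 to 0.12), or 0.14 without the minorities, Mecom -0.08 (-0.19 to 0.02), or 0.00, and Ly6a -0.11 (-0.34 to 0.13). Without the minorities the Hlf interval was 0.08 to 0.21. Mycn stood at -0.34 (-0.47 to -0.20), or -0.26 without the minorities (-0.40 to -0.12). Procr, the gene of CD201, stood at -0.29, and between -0.95 and -0.20 under the other settings of the processing. When cells with lineage transcripts were kept in the gate, the ratios were -0.56 for Hlf, -0.71 for Mecom, -0.64 for Ly6a, -0.97 for Mycn and -0.38 for Flt3, and the stem cell identity median was -0.55. Flt3 stood at 0.23 (0.08 to 0.38) and Kit, the stem cell factor receptor, at 0.14 (0.04 to 0.23). Txnip, a redox regulator and stem cell identity member, had 311 CPM in KO and 246 CPM in WT (0.34, 0.25 to 0.43). Granulocyte-monocyte priming stood at -0.07, lymphoid priming at 0.15 and megakaryocyte priming at 0.09 in the median without the minorities. Without the minorities the G2 and M phase list stood at 0.07 in this gate, while it was 0.49 in CD150+CD48- cells.

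Splicing factors and histone genes stood above 0 in the median and ribosomal protein genes below 0. Of all 6009 genes measured 3691 were above 0 and 2.51% at least 1.5-fold higher. Of 44 splicing factors measured 36 were above 0 and 2 were at least 1.5-fold higher, with a median of 0.19. Srsf5, a serine- and arginine-rich splicing factor, had 453 CPM in KO and 303 CPM in WT (0.58, 0.50 to 0.66), and Clk2, a kinase of such factors, 23.9 CPM in KO and 14.3 CPM in WT (0.74). Of 25 replication-dependent histone genes, which are near-identical copies without the usual poly(A) tail, 20 were above 0, 5 below 0 and 5 at least 1.5-fold higher, with a median of 0.22. Hist1h2ap had 4372 CPM in KO and 2066 CPM in WT (1.08), and ratios of 1.16 in CD150+CD48- cells and 1.02 in CD150-CD48+ cells. Of 77 ribosomal protein genes 67 were below 0 and none past 20%, with a median of -0.11.

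The gate was divided at the median CD201 value of each library, because CD201 marks stem cells within LSK cells. This gave 127 upper and 127 lower cells in KO and 251 upper and 251 lower cells in WT. The upper cells also carried less CD48, with median tags of 602 in upper and 1264 in lower KO cells and of 313 in upper and 785 in lower WT cells, so the division follows CD48 too. Of 5748 genes 26 were at least 1.5-fold higher in upper cells of both libraries (0.452%) and 51 lower (0.887%). Without the minorities these were 29 (0.508%) and 14 (0.245%) of 5711. The genes lowest in upper cells over all cells were H2-Eb1, Ly86, H2-Aa, H2-Ab1, Mpeg1, Lgals3, Plbd1, Cd74, Ifi205 and Id2, mostly transcripts of antigen-presenting and other myeloid cells. Without the minorities each of them was under 20 CPM in WT and so not ranked. Ly86 then still had 0.825 CPM in upper and 22.8 CPM in lower KO cells, and no UMI in upper and 7.52 CPM in lower WT cells.

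Without the minorities most imprinted growth genes were higher in upper CD201 cells. Of 9 measured 8 were above 0 in both libraries, 7 of them at least 1.5-fold in KO and 3 in WT, with medians of 0.72 in KO and 0.39 in WT beside -0.01 in KO and 0.04 in WT over all genes. The fetal stem cell program list had 5 of 8 above 0 in both libraries, with medians of 0.04 in KO and 0.16 in WT. Igf2, insulin-like growth factor 2, had 21.5 CPM in upper and 4.95 CPM in lower KO cells (2.12, 1.22 to 3.12) and 21.4 CPM in upper and 3.19 CPM in lower WT cells (2.74, 1.92 to 3.68). Procr, the gene of CD201, had ratios of 1.43 in KO and 1.14 in WT, and Igf1 2.14 in KO and 1.17 in WT. H19 stood at 0.95 in KO and 1.57 in WT, Mecom at 0.68 in KO and 0.76 in WT, and Mllt3, a transcription elongation cofactor that maintains stem cells, at 0.79 in KO and 0.86 in WT. The lower cells held more Cd48 (-1.38 in KO, -1.85 in WT), Tespa1 (-1.44 in KO, -1.53 in WT), Serpinb1a, a protease inhibitor of myeloid cells (-1.31 in KO, -1.61 in WT), Plac8 (-1.65 in KO, -0.83 in WT) and Mpo (-1.18 in KO, -1.27 in WT). Flt3 was near even between the upper and lower cells, at -0.10 in KO and -0.06 in WT, and Hlf was at 0.12 in KO and 0.30 in WT. Fos stood at 0.18 in KO and -0.09 in WT, and both intervals included 0.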

How the data were processed

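RNA and 6 antibody tags were measured in 1 library per genotype (4 samples in all, RNA and tags listed apart). The deposited matrices hold raw UMI counts of each gene and tag in each barcode. Per the file headers Cell Ranger wrote them. The submitters' processing notes give its version as 4.0.6 and the build as mm10, and also name Seurat and DESeq. The values were whole and no barcode had been filtered. No columns of other samples were used. The members, gene lists and rules were chosen with earlier results of these data known.

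Counts were summed over the cells of a gate per library and scaled to 1000000 gene UMIs (CPM). Genes with at least 20 CPM in either group counted as measured, and 1.5-fold, 25% higher and 20% lower were the sizes counted. Ratios carry exact conditional binomial 95% intervals of 2 Poisson counts, shares Clopper-Pearson intervals and differences of shares Newcombe intervals, without any test. Cells were thinned to 8000 gene UMIs for shares of cells with a UMI. No doublets were removed. The cell minimum sets only a lower bound on depth, so precision per cell still varied within and between the libraries, and low genes rest on few UMIs. Sums assign each ambiguous read as the counting did, so near-identical copies are uncertain, and 38 symbols stand for 78 gene identifiers.

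Named were Bclaf1, the markers, the antibodies' genes, the 12 highest and 12 lowest genes of KO over WT and the 10 highest and 10 lowest of each other comparison by the interval bound nearest to 0, and up to 5 members of each list; haemoglobins, sex-linked genes and the transcripts of the rule were left out of the rankings. A few named genes are not reported here. The results without the erythroid and MHC class II cells were added after the data were seen and are ranked by the same rule. Alternatives covered the limits of the gate, UMI and mitochondrial filters, the transcript condition, tag depth, scaling, thinning, background subtraction, expression filter and the leaving out of the 5% of cells with most UMIs. The scripts were tested on simulated data. Promoter windows were RefSeq's on GRCm38.p6. Python 3.11.15, numpy 2.4.6, scipy 1.17.1, pandas 2.3.3 and matplotlib 3.10.9 were used.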

Additional observations from a re-analysis of the deposited data

Results flagged for a closer look

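Some genes had ratios of opposite sign in the 2 libraries or in 2 gates, with both counting intervals away from 0 and both sizes past 25% higher or 20% lower. None of these differences was tested, since there was 1 library per genotype.

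Mt1 in CD150-CD48- over CD150-CD48+ cells was at 1.78 in KO and -0.41 in WT, and without the minorities at 0.42 in KO and -1.14 in WT. In upper over lower CD201 cells Mt1 was at 0.94 in KO and -1.50 in WT, Mt2 at 2.61 in KO and -1.24 in WT, and Gm26917 at 2.08 in KO and -0.38 in WT. Without the minorities both libraries had the same sign in that comparison, with Mt1 at -0.80 in KO and -0.20 in WT, Mt2 at 0.86 in KO and 0.57 in WT, and Gm26917 at -0.22 in KO and -0.14 in WT. Ermap was at 4.39 in KO in the same comparison, and had no UMI in upper WT cells. Tnfaip2 in CD150-CD48- over CD150+CD48- cells was at 0.52 in KO and -1.29 in WT, and without the minorities at -0.84 in KO and -1.41 in WT. The KO over WT ratio of H2-Eb1 was 1.27 in this gate and -0.49 in CD150-CD48+ cells, and that of Cd74 0.69 in this gate and -0.51 in CD150-CD48+ cells. Without the minorities Cd74 had 8.91 CPM in KO and 11.7 CPM in WT here. Lgals3, a galectin of myeloid cells, had a KO over WT ratio of -0.57 in this gate against 1.37 in CD150+CD48- cells and 0.37 in CD150-CD48+ cells, and 0.50 in this gate without the minorities. Irf8, a factor of dendritic cell and monocyte fate, had -0.34 in this gate against 0.86 in CD150+CD48- cells, and 0.26 in this gate without the minorities.

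Others were single genes at low or moderate levels. Ctsg, a granule protease of granulocyte progenitors, had a KO over WT ratio of -1.16 in this gate against 2.64 in CD150+CD48- cells and 0.74 in CD150-CD48+ cells, and a ratio of CD150-CD48- over CD150+CD48- cells of -1.55 in KO and 2.25 in WT, on 2.15 CPM in KO and 4.82 CPM in WT. Slfn2 in upper over lower CD201 cells was at -0.65 in KO and 0.50 in WT, and without the minorities at 0.23 in KO and 0.79 in WT. Cdk6, a G1 kinase, was at 0.34 in KO and -0.41 in WT in that comparison, and at -0.57 in KO and -0.38 in WT without the minorities. Cdc20, a mitotic regulator, in CD150-CD48- over CD150+CD48- cells was at -0.41 in KO and 0.32 in WT.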

How the results depend on the processing

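No paired analysis was possible because each genotype was 1 library, and for the same reason no library could be left out. The share difference of -0.116 points became 1.66 with at least 16000 gene UMIs and 2.26 without the transcript condition. Genes at least 1.5-fold higher in KO (151) numbered 230 at 5% mitochondrial UMIs, 97 with a looser CD48 limit, 323 in thinned cells, 247 with background subtracted and 1348 at a minimum of 1 CPM. Genes lower in KO (14) numbered 42 at 16000 UMIs, 23 at 5% mitochondrial UMIs, 8 with the looser CD48 limit, 190 without the transcript condition, 24 by median of ratios, 57 thinned, 24 with background subtracted, 480 at 1 CPM and 9 without both minorities. Against CD150+CD48- cells, 59 higher became 33 without the transcript condition and 403 at 1 CPM, and 52 lower became 362 at 1 CPM. Against CD150-CD48+ cells, 399 higher became 205 without the transcript condition and 1992 at 1 CPM, and 129 lower became 72 at 16000 UMIs, 72 with the looser CD48 limit, 230 by median of ratios and 350 at 1 CPM. For CD201, 26 higher became 49 thinned, 470 at 1 CPM, 131 between the outermost CD201 groups of a division in 4 and 15 without MHC class II cells, and 51 lower became 319 at 1 CPM, 141 between those outermost groups, 14 without both minorities and 13 without MHC class II cells. Among ratios of at least 1.5-fold, signs turned for Ctsg (0.29 at 5% mitochondrial UMIs, 1.27 with the looser CD48 limit, 0.14 with no UMI of the 5 lineage transcripts, 1.68 without that condition). Without both minorities, which like the other removals of cells was chosen after seeing the data, they turned for Tnfaip2 (-0.051), Gm26917 (-0.20), H2-Aa (-0.88), H2-Ab1 (-0.24) and Cd74 (-0.39). Without erythroid cells alone Tnfaip2 stood at -0.050 and Gm26917 at -0.24, and without MHC class II cells alone H2-Ab1 at -0.44 and Cd74 at -0.33. A lower expression minimum and thinning admit genes with few UMIs. The causes of the other moves were not tested. Of 3178 values of 199 named-gene ratios under the other planned settings 2834 stayed within their counting interval and 187 had the opposite sign, 4 of these for ratios reported at 1.5-fold or more. The immediate early median ranged over 0.52 to 0.86, the interferon response median over -0.53 to -0.16 and the MHC class I median over -0.49 to -0.30, all on 1 side of 0. The ATF4 median ranged over 0.05 to 0.43, that of NF-kB and TNF response over 0.02 to 0.32 and that of p53 targets over 0.14 to 0.34. The median of all genes ranged over 0 to 0.09. Of 29 lists 15 crossed 0, among them stem cell identity (-0.55 to 0.07), lymphoid priming (-0.38 to 0.29) and S phase (-0.29 to 0.18).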

Other observations

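Hbb-bt, a beta-globin, was kept out of the rankings as a haemoglobin. It had 2084 CPM in KO and 2113 CPM in WT in the gate, 1845 CPM in KO and 1996 CPM in WT in CD150+CD48- cells, and 442 CPM in KO and 501 CPM in WT in CD150-CD48+ cells. Its KO over WT ratio in the gate was -0.02. Free RNA summed to 354 CPM of 7 haemoglobins in KO and 449 CPM in WT, below the 2105 CPM in KO and 2134 CPM in WT of the gate.

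Egfl7, a secreted factor of endothelial cells and blood progenitors, was higher in the gate than in CD150+CD48- cells in both libraries, with 257 CPM and 148 CPM in KO and 305 CPM and 171 CPM in WT (log2 0.80 in KO, 0.84 in WT).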
